A study of Mus musculus with 28 samples.

Results

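The genes described here are 10 enzymes and transporters that handle ammonia and glutamine in the liver. Cps1, Otc, Ass1, Asl and Arg1 encode the enzymes of the urea cycle and Gls2 encodes liver glutaminase, and these 6 are placed with the hepatocytes around the portal vein. Glul, Oat, Slc1a2 and Rhbg serve glutamine synthesis, ornithine breakdown, glutamate uptake and ammonium transport, and these 4 are placed with the hepatocytes around the central vein. A probe was included when the gene name in the scanner files was one of these 10 symbols, which gave 18 probes out of 41174 and 10 genes out of the 21852 tested.

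Blood flows through the liver lobule from the portal to the central vein. Periportal hepatocytes release ammonia from glutamine and turn it into urea, and a thin layer of pericentral hepatocytes takes up the ammonia that remains and binds it as glutamine. The pericentral genes are known to depend on Wnt and beta-catenin signalling, while urea cycle genes are known to follow protein intake, glucagon and glucocorticoids.

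Livers came from 28 male C57/6J mice, each measured on 1 single-colour Agilent array, so that replicates are separate animals. The mice were 7 weeks old when the diets began and 33 weeks old after 26 weeks of feeding. The standard diet group (SD) had 5 livers and the high fat diet group (HFD) had 6. The HQ group (5 livers) received the high fat diet with 0.4% quercetin, equal to 4 g per kg of diet, and the HR group (6 livers) received it with 0.4% resveratrol, also 4 g per kg. The HQR group (6 livers) received the high fat diet with 0.2% of each compound, 2 g per kg of quercetin and 2 g per kg of resveratrol. Quercetin is a plant flavonol and resveratrol a plant stilbene. RNA of 2 further livers had degraded and was not put on arrays, and only the high fat diet without a compound serves as control for the supplements. The diets as labelled do not state their protein content.

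Between 59.3% and 82.1% of probes were well above background on an array, and no spot was saturated. The arrays lay on 9 slides scanned on 4 days, and the diets were not spread evenly over them. HQ shared 2 slides with HFD and 2 with SD, and HQ replicate 3 was the only array on slide 4. Diet and slide thus cannot be fully told apart in the comparisons of HQ. Of the marker genes tested, 7 of 7 hepatocyte markers were well above background on every array, whereas 0 of 4 pancreas markers were. Levels are given as log2 of the processed signal minus the array's 75th percentile, so that 0 is the brightness of that percentile and 1 unit is a 2-fold step. Levels of different probes cannot be set against each other on this scale. Of the 18 probes, 16 were well above background on all 28 arrays, and these include the probe that stands for each gene.

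Some member probes are shown first, because 4 of the genes have more than 1 probe and their probes did not always give the same result. The levels given below for Otc and Glul come from other probes than those shown. The coordinates are those of the scanner files on mouse build mm9, and no gene annotation of that build was used here. The Otc probe shown maps to chrX:9853843-9877490 on the plus strand, a span of 23648 bases for 60 bases of probe, so it crosses an intron.
Otc probe A_51_P126563: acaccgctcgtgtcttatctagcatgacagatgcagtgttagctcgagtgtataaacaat
The 2 Ass1 probes map to chr2:31374279-31375918 and chr2:31375899-31375957 on the plus strand, and the capitals mark the 20 bases they share. The second is shown for its first 39 bases, up to a stop codon.
Ass1 probe A_52_P361165: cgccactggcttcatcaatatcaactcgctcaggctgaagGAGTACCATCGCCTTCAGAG
Ass1 probe A_51_P338713: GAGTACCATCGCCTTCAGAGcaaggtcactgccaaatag
The single Asl probe maps to chr5:130487964-130488549 on the minus strand and also crosses an intron.
Asl probe A_51_P174645: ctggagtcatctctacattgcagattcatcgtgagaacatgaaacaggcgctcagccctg
The Glul and Slc1a2 probes shown map to chr1:155751765-155751824 and chr2:102617706-102617765, both on the plus strand. Glul levels below are those of probe A_52_P101279 at chr1:155756750-155756809, which is not shown, and Slc1a2 levels are those of the probe shown.
Glul probe A_52_P143866: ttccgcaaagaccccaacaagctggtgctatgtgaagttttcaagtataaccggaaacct
Slc1a2 probe A_52_P168496: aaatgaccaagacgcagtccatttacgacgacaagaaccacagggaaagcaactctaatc

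None of the 10 genes passed the test in any of the 10 comparisons between diets, nor did any pass across the 5 diets by limma's moderated F test. The test was limma with Benjamini-Hochberg adjustment over all 21852 genes, with calls at an adjusted p under 0.05. Few genes of the whole array passed either: 0.114% in HFD against SD, 0.0366% in HQ against SD, 0.0549% in HR against SD and 0.0503% in HQR against SD. Against HFD the shares were 0% for HQ, 0.00915% for HR and 0% for HQR. Between the supplements they were 0% for HQ against HR, HQR against HQ and HQR against HR, and 0.105% for the F test. The smallest adjusted p of a member was 0.166 (Asl, HQR against SD), and the 95% intervals below give the range of each difference. At an unadjusted p under 0.05 in the F test, 5 of 10 members (Otc, Asl, Rhbg, Glul and Slc1a2) passed, against 3.97% of all genes. Where 0 genes of the array were called, 465 passed unadjusted in HQ against HFD, 298 in HQR against HFD, 282 in HQ against HR, 312 in HQR against HQ and 606 in HQR against HR.

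The SD mean was the highest of the 5 group means for 9 of the 10 genes, against 28.9% of all genes. Otc, highest in HFD at the probe that stands for it, was the exception. Its probe A_51_P126563 was highest in SD (-0.52) and its probe A_52_P369776 in HQR (-2.19). The mean lay below SD for 9 of 10 genes in HFD (55.4% of all genes), 10 of 10 in HQ (58%), 10 of 10 in HR (57.3%) and 9 of 10 in HQR (48.8%). These 4 comparisons use the same 5 SD livers, so they are not separate evidence. Within the 4 slides that held SD and HFD, Asl and Gls2 were lower in HFD on all 4. Cps1 and Slc1a2 were lower on 3, Ass1, Arg1, Glul and Rhbg on 2, and Oat on 1. With 1 array left out, the HFD difference from SD reached 0.05 for Ass1 and 0.04 for Oat. The median difference over the 10 genes was -0.37 in HFD, -0.64 in HQ, -0.72 in HR and -0.70 in HQR, whereas over all genes it was -0.04, -0.05, -0.05 and 0.01. Against HFD the mean was lower for 8 of 10 genes in HQ (50.9% of all genes), 9 in HR (47.9%) and 8 in HQR (41.6%). The genes were proposed with earlier results of these arrays known, and these counts describe them without a test.

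**Figure D1:**
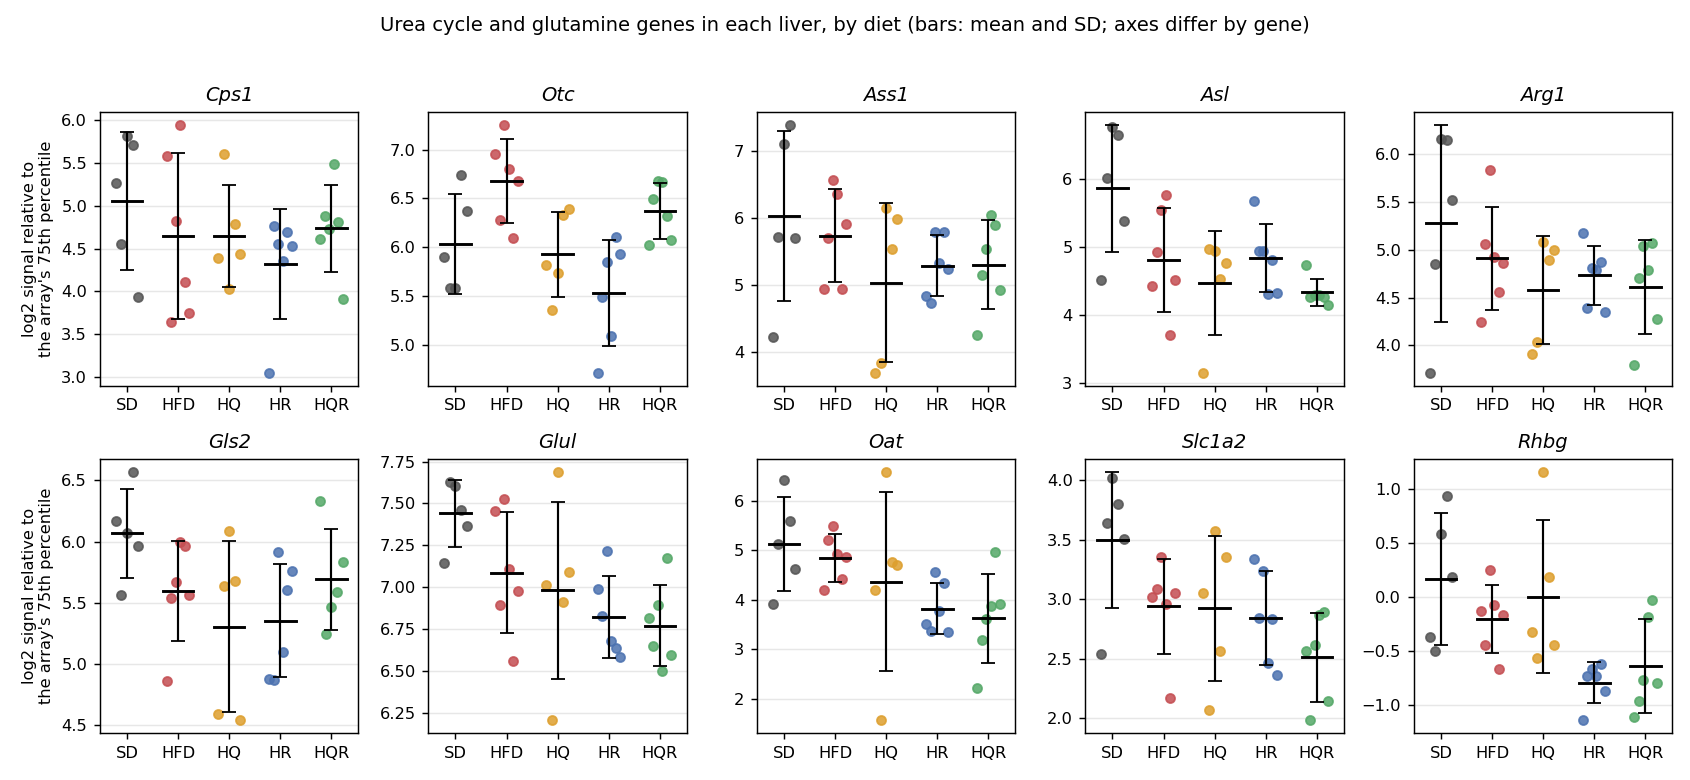
Each point is 1 liver, with its log2 signal relative to the array's 75th percentile on the vertical axis and the diet group on the horizontal axis. Horizontal bars are group means, vertical bars are 1 SD within the group, and each gene has its own axis. The SD mean is the highest for 9 of the 10 genes, while for Otc, at the probe that stands for it, the HFD mean is.

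At an unadjusted p under 0.05, 6 of the 10 genes lay below SD in HR (2.81% of all genes) and 5 in HQR (3.37%). In HQ 3 did (2.00%), and in HFD 1 lay below (2.80%) and 1 above SD (3.35%). The 4 pericentral genes were all among the 6 of HR and among the 5 of HQR. Of the 6 periportal genes, Asl and Gls2 were in HR and Asl was in HQR. In bulk liver, fewer cells of a zone and less RNA per cell cannot be told apart. The summed signal of the 7 hepatocyte markers, relative to the 75th percentile, had medians of 1100 in SD, 895 in HFD, 886 in HQ, 836 in HR and 788 in HQR, with ranges from 758 to 1615 in SD and from 638 to 1002 in HQR. Its part in the lower member levels was not tested.

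**Figure D2:**
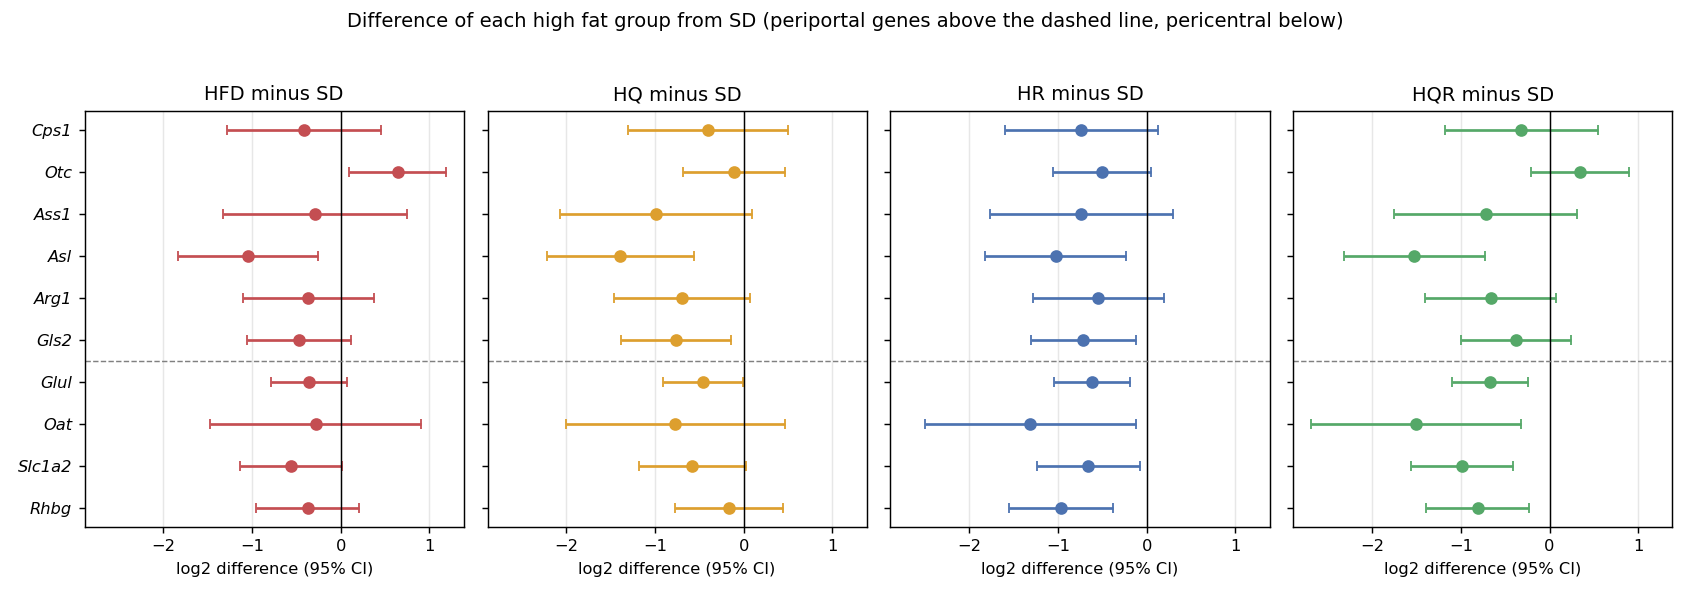
Differences of the HFD, HQ, HR and HQR group means from SD on the log2 scale are on the horizontal axis, with 95% confidence intervals from the limma fit, for the 6 periportal genes above the dashed line and the 4 pericentral genes below it. The Asl interval lies wholly below 0 in all 4 panels, and in HR and HQR so do those of Glul, Oat, Slc1a2 and Rhbg, although none of these passed after adjustment.

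Cps1 encodes carbamoyl phosphate synthetase, which brings ammonia into the cycle and sets its pace. Its levels in SD were 5.27, 4.55, 5.82, 5.72 and 3.93. In HFD they ran from 3.64 through a median of 4.46 to 5.95. In HQ they were 4.39, 5.60, 4.03, 4.78 and 4.44. The HFD range enclosed that of SD, so these diets overlapped throughout. In HR the lowest, median and highest levels were 3.04, 4.54 and 4.77, and in HQR 3.91, 4.77 and 5.49. The widest gap from SD was -0.73 ± 0.42 (SE) in HR, with a 95% interval from -1.60 to 0.13 and all 6 HR livers below the SD mean.

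Otc encodes ornithine transcarbamylase, which joins carbamoyl phosphate to ornithine, and had the smallest p of the members in the F test (adjusted p = 0.386). The probe that stands for it, A_52_P286360, lies at chrX:9897267-9897326. Its levels in SD were 5.90, 5.58, 5.59, 6.74 and 6.37. In HFD they ran from 6.10 through a median of 6.74 to 7.25, and all 6 lay above the SD mean. In HQ they were 5.82, 5.36, 5.74, 6.33 and 6.39. With resveratrol the probe read lower again, from 4.71 through 5.67 to 6.11, and only the highest HR liver reached the lowest HFD liver. HQR livers ran from 6.02 through 6.41 to 6.68. HFD lay 0.64 ± 0.27 (SE) above SD by limma (adjusted p = 0.712). HR lay below HFD by a log2 difference of -1.15 ± 0.26, or 2.21-fold, with all 6 livers below the HFD mean (adjusted p = 0.279). Within the 4 slides that held both diets the HR minus HFD difference ran from -2.16 to -0.16, below 0 on all 4.

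The 3 Otc probes differed in this. The junction probe printed above differed by -0.18 between HFD and SD and by 0.09 between HR and HFD. The third probe, A_52_P369776 at chrX:9893244-9893303, differed by 0.44 and -0.36, in the same directions as the representative probe. Over the 28 arrays the junction probe correlated with the representative probe at r = 0.129 and the third probe with it at r = 0.455. When the 3 probes were averaged, HR lay -0.47 from HFD in place of -1.15. In HFD against SD and HR against HFD the most 3′ probe gave the largest differences. There the third probe went the same way by less, and the junction probe did not. In other comparisons the third probe did not always follow. HR minus SD was -0.50 at the most 3′ probe and 0.08 at the third, and HQR minus SD was 0.34 and 0.46.

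**Figure D3:**
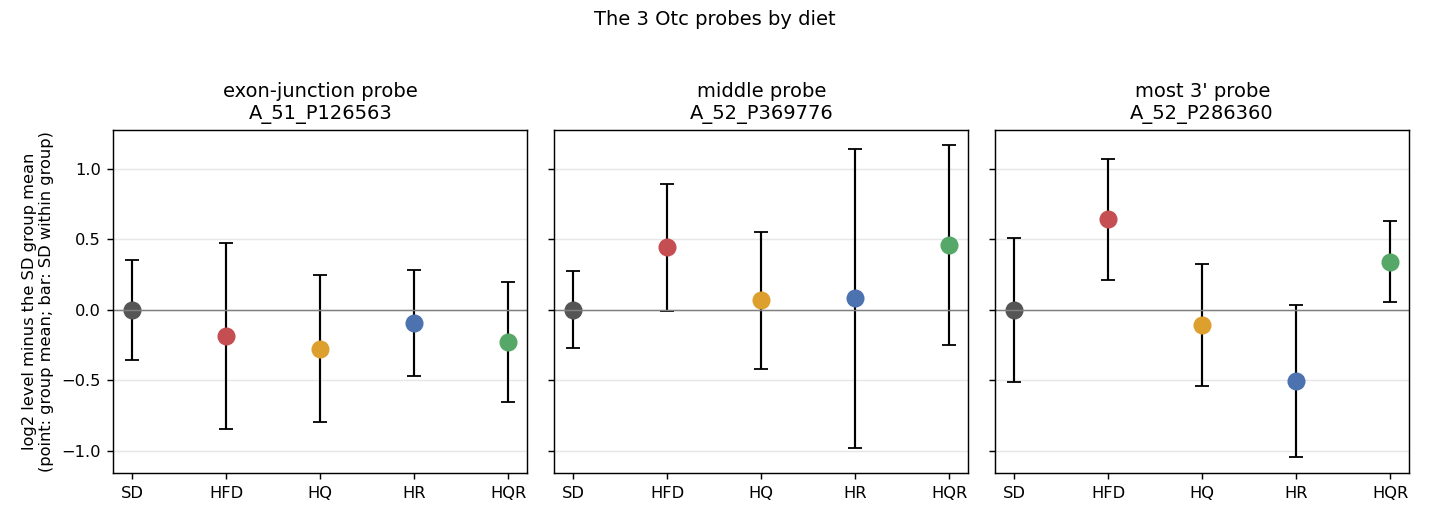
For each of the 3 Otc probes, points are the group means of the log2 level minus that probe's SD group mean, by diet, and bars are 1 SD within the group. For the most 3′ probe HFD lies at 0.64 and HR at -0.50, whereas the groups of the junction probe lie between -0.27 and -0.09 and the third probe has HFD at 0.44 and HR at 0.08.

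Ass1, argininosuccinate synthase, adds aspartate to citrulline and is often described as rate-limiting once ammonia has entered. Its levels in SD were 4.23, 5.71, 7.09, 7.38 and 5.70, a range wider than that of any other group. HFD ran from 4.94 through 5.80 to 6.56. HQ livers read 3.68, 3.83, 6.14, 5.54 and 5.97, and so fell into a low pair and 3 higher ones. HR ran from 4.74 through 5.28 to 5.79 and HQR from 4.26 through 5.35 to 6.05. The largest difference, HQ minus SD, was -0.99 ± 0.53 (SE) with an interval from -2.07 to 0.09. The 2 overlapping Ass1 probes followed each other at r = 0.995 over the arrays, and each gave -0.99 for HQ minus SD.

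Asl encodes argininosuccinate lyase, which releases arginine and fumarate, and had the smallest p of the members against SD. In SD the levels were 4.51, 6.01, 6.76, 6.63 and 5.38. In HFD the lowest, median and highest were 3.71, 4.72 and 5.76, and all 6 lay below the SD mean. In HQ they were 3.15, 4.96, 4.94, 4.53 and 4.76. HR livers ran from 4.31 through 4.87 to 5.67. The HQR livers were unusually alike, from 4.14 through 4.28 to 4.73. Only SD replicate 1, at 4.51, lay within the range of HQR, whose highest liver was replicate 1.

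By limma HQR lay below SD by -1.53 ± 0.39 (SE), or 2.88-fold, with a 95% interval from -2.32 to -0.73 (adjusted p = 0.166). The same difference was -1.39 ± 0.40 in HQ (adjusted p = 0.585), -1.05 ± 0.39 in HFD (adjusted p = 0.591) and -1.02 ± 0.39 in HR (adjusted p = 0.608). The interval of Asl lay below 0 in each high fat group. HR minus HFD was 0.02, with an interval from -0.74 to 0.78, and HQR minus HR was -0.50, with an interval from -1.26 to 0.26 and all 6 HQR livers below the HR mean. Asl was not called in HQR against SD in the main fit, but it was under some alternatives. Without SD replicate 1 HQR minus SD was -1.86 with an adjusted p of 0.0384 by limma. Without the 4 arrays of slide 1, which held replicate 1 of SD, HFD, HQ and HQR, it was -1.94 with an adjusted p of 0.0168. With arrays weighted by their quality it was -1.67 with an adjusted p of 0.0131, while calls over all genes rose from 11 to 115. Within the 3 slides that held both diets it ran from -2.34 to 0.22, and below 0 on 2 of them. HFD minus SD ran from -1.09 to -0.09 within 4 slides.

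Arg1, arginase, splits arginine into urea and ornithine. SD livers read 3.71, 4.85, 6.16, 6.15 and 5.52, and HFD livers ran from 4.24 through 4.89 to 5.83. HQ livers read 3.91, 4.03, 5.08, 4.89 and 5.00. HR ran from 4.35 through 4.80 to 5.18 and HQR from 3.80 through 4.75 to 5.07. Every group overlapped with SD, whose replicate 1 was the lowest liver of all. The differences from SD lay between -0.37 (HFD) and -0.70 (HQ), and the HQ interval ran from -1.47 to 0.07.

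Gls2, which frees ammonia from glutamine beside the urea cycle, read 6.17, 5.56, 6.07, 6.57 and 5.96 in SD. HFD ran from 4.86 through 5.62 to 5.99, HR from 4.87 through 5.35 to 5.91, and HQ read 4.59, 5.64, 6.09, 5.68 and 4.54. In HQR 5 of 6 arrays gave a value, since 1 spot was marked as an outlier by the scanner software, and they ran from 5.24 through 5.59 to 6.33. By limma HQ lay -0.76 ± 0.30 (SE) from SD (adjusted p = 1.00) and HR -0.71 ± 0.29 (adjusted p = 0.680).

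Glul encodes glutamine synthetase, the enzyme that defines the pericentral layer. SD livers read 7.14, 7.63, 7.61, 7.46 and 7.37. HFD ran from 6.56 through 7.04 to 7.52 and HQ livers read 7.02, 6.20, 7.69, 6.91 and 7.09. HR ran from 6.58 through 6.76 to 7.22 and HQR from 6.50 through 6.73 to 7.18, so that in both groups all 6 livers lay below the SD mean of 7.44 and only the highest exceeded the lowest SD liver. HQR minus SD was -0.67 ± 0.21 (SE) by limma (adjusted p = 0.376) and HR minus SD -0.62 ± 0.21 (adjusted p = 0.506). HFD minus SD was -0.35, with an interval from -0.78 to 0.07. All 3 Glul probes lay below SD in HQR, at -0.67, -0.80 and -0.92, and they correlated with each other at r from 0.658 to 0.868. Within the slides that held both diets HQR minus SD lay between -0.57 and -0.33.

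Slc1a2 encodes a glutamate transporter that supplies glutamine synthesis in the same cells. SD livers read 2.54, 3.64, 4.02, 3.80 and 3.51. HFD ran from 2.17 through 3.04 to 3.35, and HQ livers read 3.05, 2.07, 3.57, 2.56 and 3.35. HR ran from 2.36 through 2.83 to 3.34 and HQR from 1.98 through 2.59 to 2.89. Apart from SD replicate 1, the SD livers all lay above every HFD, HR and HQR liver. HQR minus SD was -0.99 ± 0.28 (SE), or 1.98-fold, by limma (adjusted p = 0.264), and weighting the arrays brought its adjusted p to 0.0222. In HFD, HQ and HR the difference lay between -0.56 and -0.65. Within the 3 slides that held both diets HQR minus SD ran from -1.19 to 0.03.

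Rhbg, an ammonium transporter of the basolateral membrane, was the only member with a pair of diet groups that did not overlap. SD livers read -0.37, -0.51, 0.58, 0.94 and 0.19. HR livers ran from -1.15 through -0.73 to -0.62, so that the highest HR liver lay below the lowest SD liver. HQ livers read -0.32, -0.57, 1.16, 0.19 and -0.44 and also lay wholly above HR. HFD ran from -0.67 through -0.15 to 0.25 and HQR from -1.12 through -0.78 to -0.02. HR minus SD was -0.96 ± 0.28 (SE) by limma (adjusted p = 0.346), and 0.352% of all genes had groups that did not overlap in this way. HQ minus HR, the comparison of quercetin with resveratrol at the same dose, was 0.80 ± 0.28 (adjusted p = 1.00), where 0.0641% of genes had no overlap in that direction. HQR minus SD was -0.81 ± 0.28 (adjusted p = 0.473). Within the 3 slides that held HQ and HR the difference ran from 0.18 to 0.86. HQ minus HFD was 0.21, but it ran from -0.37 to -0.19 within the 2 slides that held both.

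Oat, ornithine aminotransferase, removes ornithine and is concentrated in the pericentral layer. SD livers read 3.91, 5.13, 6.42, 5.58 and 4.61, and HFD ran from 4.19 through 4.88 to 5.48. HQ livers read 4.19, 1.56, 6.58, 4.76 and 4.70, the widest spread of any member in any group, with an SD of 1.81. HR ran from 3.35 through 3.65 to 4.55 and HQR from 2.21 through 3.73 to 4.95. HQR minus SD was -1.51 ± 0.58 (SE) by limma (adjusted p = 0.543) and HQR minus HFD -1.22 ± 0.55 (adjusted p = 0.987). HR minus HFD was -1.03, with an interval from -2.16 to 0.10, and ran from -1.84 to -0.57 within the 4 slides that held both. The HQ differences of Oat from HFD and SD changed sign when arrays were weighted.

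Among high fat groups, few members separated the supplements from the unsupplemented diet. At an unadjusted p under 0.05, Otc lay below HFD in HQ (1 of 10 genes, 1.35% of all genes lower), Otc and Rhbg in HR (2 of 10, 3.02%) and Oat in HQR (1 of 10, 0.879%). Otc in HQ differed from HFD by -0.75 ± 0.27 (SE) by limma (adjusted p = 1.00) at its most 3′ probe, against -0.38 at the third probe and -0.09 at the junction probe. Rhbg in HR differed by -0.59 ± 0.27 (adjusted p = 0.981). The interval for Cps1 in HQ ran from -0.86 to 0.87 and for Slc1a2 in HQ from -0.59 to 0.56, on both sides of 0. The 3 supplements share the same HFD livers.

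Quercetin and resveratrol could be compared at 4 g per kg each. Only Rhbg differed at an unadjusted p under 0.05 (1 of 10 higher in HQ, 0.632% of all genes). The HQ mean was below the HR mean for 4 of 10 genes (51.8% of all genes), and for none of the 4 pericentral ones. Of these, Slc1a2 and Glul turned sign with slide as a block, to -0.09 for both, and Oat reached -0.02 with 1 array left out, while Rhbg stayed between 0.43 and 1.17 under the alternatives. Among the periportal genes the sign of Ass1, Arg1, Gls2 and Cps1 also turned when arrays were weighted. For Glul the interval of HQ minus HR ran from -0.27 to 0.59, for Slc1a2 from -0.50 to 0.65 and for Asl from -1.16 to 0.43. In HQR, at 2 g per kg of each compound, Rhbg lay -0.65 from HQ (1 of 10 genes past an unadjusted 0.05, 0.467% of all genes lower) and Otc 0.84 above HR (1 of 10, 1.92% of all genes higher), with adjusted p = 1.00 for both by limma. That Otc difference is from its most 3′ probe, against 0.38 at the third probe and -0.14 at the junction probe. The doses of each compound in HQR differ from those in HQ and HR.

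In the order of the group means no pair of neighbours passed the adjusted test. The order was SD, HFD, HQ, HR and HQR for Glul, Slc1a2 and Oat, and the same with HQ before HFD and HQR before HR for Rhbg. It was SD, HFD, HR, HQR and HQ for Arg1, and for Ass1 the same with HQR before HR. Gls2 ran SD, HQR, HFD, HR and HQ, and Cps1 ran SD, HQR, HQ, HFD and HR. Otc at its most 3′ probe ran HFD, HQR, SD, HQ and HR. For Asl the order was SD, HR, HFD, HQ and HQR, and its step of 1.02 from SD to HR was the largest between neighbours in any of the 10 genes.

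Some members varied together from liver to liver. Correlations over the 28 arrays are given as descriptions, since the arrays also share diets, slides and signal quality. Glul and Slc1a2 had r = 0.841, which made Slc1a2 the third and Glul the second most similar gene of the other among 21851. The gene closest to both was Lhpp, a pericentral phosphatase, at r = 0.910 with Glul and r = 0.909 with Slc1a2. After removing group and slide means the values were 0.754 for Glul with Slc1a2, 0.878 for Glul with Lhpp and 0.910 for Slc1a2 with Lhpp. Slc1a2 then ranked 114 for Glul and Glul 315 for Slc1a2, while Lhpp ranked 3 for Glul and 5 for Slc1a2. Before that removal the remaining gene of the top 3 was 4833417J20Rik for Glul (r = 0.853) and AA261046 for Slc1a2 (r = 0.838). Lhpp means were 6.64 ± 0.56 (SD, n = 5) in SD, 6.19 ± 0.40 (n = 6) in HFD, 6.04 ± 0.73 (n = 5) in HQ, 5.70 ± 0.44 (n = 6) in HR and 5.60 ± 0.28 (n = 6) in HQR, the same order as Glul.

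**Figure D4:**
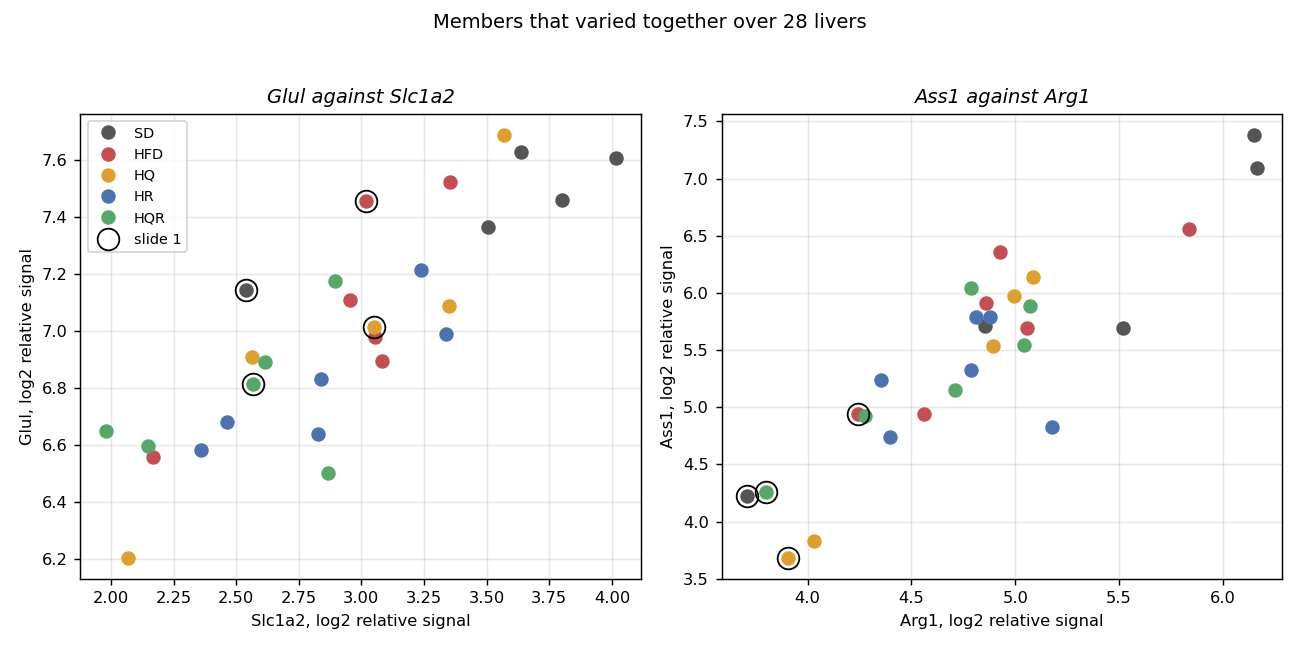
Each point is 1 liver coloured by diet, with log2 signal relative to the array's 75th percentile of Slc1a2 and Glul (left) and of Arg1 and Ass1 (right), and black rings mark the 4 arrays of slide 1. Glul follows Slc1a2 at r = 0.841 and Ass1 follows Arg1 at r = 0.888, and 3 of the 4 ringed arrays form the lowest end of the Arg1 axis.

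Rhbg was closest to Gulo (r = 0.844), the pericentral enzyme that completes vitamin C synthesis, then to Bhmt (0.798) and Noct (0.798). For Gulo this dropped to 0.497 once group and slide means were removed, whereas Bhmt kept 0.837. Oat was closest to Cib2 (0.875), Apoh (0.863) and Lect2 (0.856). Among the periportal genes, Ass1 and Arg1 had r = 0.888, the fourth and seventh most similar gene of each other. The 3 genes closest to Ass1 were Golt1a (0.908), Apoc4 (0.897) and Dnase2b (0.891). Asl was closest to As3mt (0.882) and St3gal5 (0.871), Otc to Mzt2, Ssr3 and Gosr1 (0.905, 0.905 and 0.899) and Cps1 to Bhmt2 (0.775) and F13b (0.728). Arg1 was closest to 2 transcripts without a gene symbol (0.908 and 0.905) and Rpl17 (0.908), and Gls2 to Birc3 (0.850), Gm8221 and Apol7a (0.811). Cps1 had r of 0.335 with Otc, 0.226 with Ass1, 0.281 with Asl and 0.053 with Arg1, and Otc had 0.420 with Ass1, -0.05 with Asl and 0.234 with Arg1.

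Levels of several members also went with the slide. With no effect, 9 slides would hold a share of 0.296 of the variance between 28 arrays and 5 diets 0.148. Slides held 0.621 for Ass1, 0.580 for Arg1 and 0.574 for Oat, and diets 0.156, 0.163 and 0.287. The shares were 0.486 for slides and 0.421 for diets in Rhbg, and 0.467 and 0.375 in Glul. Slide 1 arrays averaged 4.28 for Ass1 against 5.67 on other slides, and 3.91 for Arg1 against 4.97. For Otc the shares were 0.292 for slides and 0.500 for diets. With group and slide means removed, Ass1 and Arg1 had r = 0.775. Arg1 then ranked 83 among the genes most similar to Ass1, and Ass1 ranked 189 for Arg1.

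Because Glul and Slc1a2 varied together, their promoters are printed, from RefSeq on build GRCm38.p6. Windows for 5 of the 10 genes (Glul, Slc1a2, Oat, Otc and Ass1) were matched by symbol. Each window is the 250 bases before the start, and capitals mark CTTTGA, the core of sites for the TCF/LEF partners of beta-catenin, on either strand. The Glul window is chr1:153899679-153899928 and the Slc1a2 window chr2:102706188-102706437, both on the plus strand.
Glul promoter: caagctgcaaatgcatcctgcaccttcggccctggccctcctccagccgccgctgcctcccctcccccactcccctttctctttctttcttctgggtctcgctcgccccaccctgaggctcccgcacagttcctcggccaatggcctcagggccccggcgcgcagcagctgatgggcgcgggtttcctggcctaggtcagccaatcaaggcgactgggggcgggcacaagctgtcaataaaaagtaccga
Slc1a2 promoter: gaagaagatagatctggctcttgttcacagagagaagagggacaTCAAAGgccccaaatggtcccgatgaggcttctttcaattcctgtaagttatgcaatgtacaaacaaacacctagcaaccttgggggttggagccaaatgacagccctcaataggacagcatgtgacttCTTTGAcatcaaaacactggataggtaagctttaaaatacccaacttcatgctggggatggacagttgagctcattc
The Slc1a2 window held 2 matches, beginning 206 and 77 bases before the start, and the other 4 windows held none. Of 32851 promoters, 13.8% held at least 1 match and 1.37% held 2 or more. CCAAT was found in Glul and Oat (2 of 5, against 33.8% of promoters), and TATAAA and TGACGTCA in none of the 5 (12.4% and 1.55% of promoters). A match describes letters only, and these letters do not show binding.

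Related gene lists gave few calls. The shares of all genes below SD, against which their counts are read, were 55.4% in HFD, 58% in HQ, 57.3% in HR and 48.8% in HQR. Of 10 glutamine and cationic amino acid transport genes, 1 passed: Slc1a5, a neutral amino acid exchanger, was lower in HFD than in SD by -1.08 ± 0.21 (SE, limma adjusted p = 0.0209), with levels of 1.59 to 1.99 in SD and 0.49 to 1.13 in HFD. The other direction was more common in this list except in HR. Means above SD numbered 8 of 10 in HFD (median 0.14), 6 in HQ (0.09), 4 in HR (-0.17) and 6 in HQR (0.20). Of 28 genes listed under amino acid catabolism, 1 passed: Asns, which makes asparagine with glutamine as the nitrogen donor and is not itself catabolic. Against SD, Asns was lower in HFD by -3.15 ± 0.52 (limma adjusted p = 0.00384) and in HQR by -2.71 ± 0.52 (adjusted p = 0.0432). No gene of these 2 lists passed against HFD. In all, 20 of the 28 genes so listed, Asns included, lay below SD in HFD (median -0.25), 24 in HQ (-0.34), 25 in HR (-0.32) and 21 in HQR (-0.32).

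Of 13 urea cycle support genes none passed. Their means below SD numbered 8 in HFD (median -0.07), 10 in HQ (-0.20), 12 in HR (-0.18) and 10 in HQR (-0.20). In HR, Agmat (-0.42 ± 0.15, adjusted p = 0.539 by limma) and Slc25a15, the mitochondrial ornithine carrier (-0.69 ± 0.24, adjusted p = 0.543), had the smallest p. Of 14 other periportal genes none passed. Below SD lay 12 in HFD (median -0.24), 13 in HQ (-0.33), 11 in HR (-0.29) and 11 in HQR (-0.27). Etnppl had the smallest p of these in HFD (-0.92 ± 0.41, adjusted p = 0.751). Of 20 other pericentral genes none passed. Below SD lay 13 in HFD (median -0.22), 17 in HQ (-0.34), 19 in HR (-0.46) and 16 in HQR (-0.31). Sp5, a Wnt target, differed by -1.29 ± 0.27 and Gulo by -1.37 ± 0.29 in HR against SD, both with an adjusted p of 0.0818. The smallest p values in HQR against SD were those of Sp5 (-1.09, adjusted p = 0.149) and Tbx3 (-1.15, adjusted p = 0.191).

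Of 11 Wnt and zonation regulators none passed. Their medians against SD were 0.03 in HFD, -0.004 in HQ, -0.04 in HR and 0.12 in HQR. The smallest p in HR was that of Wnt2 (0.42 ± 0.27, limma adjusted p = 1.00). Of 14 hormone and transcription regulators none passed, and their differences from SD went both ways, from -0.97 to 0.76 in HFD, from -0.91 to 1.06 in HQ, from -0.59 to 0.91 in HR and from -0.97 to 1.06 in HQR. In the F test 4 of the 14 had an unadjusted p under 0.05 (3.97% of all genes). The 2 with the smallest p in HFD were Ppargc1a (-0.97 ± 0.29, adjusted p = 0.419) and Foxa2 (0.76 ± 0.30, adjusted p = 0.646).

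Markers of other cell types were read beside these genes. The summed signal of 6 sinusoidal endothelial markers had medians of 35.4 in SD, 34.6 in HFD, 43.3 in HQ, 50.7 in HR and 38.8 in HQR. Means above SD numbered 4 of 6 in HFD (median 0.12), 6 in HQ (0.40) and 4 in HQR (0.35). In HR all 6 means lay above SD (median 0.54), with none called. Of these, 3 had an unadjusted p under 0.05 by limma (635 of all 21852 genes were higher at that level). In 2 the groups did not overlap (54 of 21852 genes in that direction). Of 7 Kupffer cell markers 5 lay below SD in HFD (median -0.51), 5 in HQ (-0.23) and 5 in HQR (-0.05). Above HFD lay 6 in HQ (0.32) and 6 in HQR (0.20). In HR 6 lay above SD (median 0.25) and 7 above HFD (median 0.55), with none called. In HR against HFD 3 had an unadjusted p under 0.05 by limma (413 of all 21852 genes were higher at that level). The 4 adipocyte markers summed to a median of 2.11 in SD and 50.8 in HFD, where 1 of the 4 was higher and passed the test, by 5.45, and the other 3 means were lower (median of the 4, -0.57). Of the 4 markers 1 was well above background on all arrays. Kidney markers summed to at most 1.59. The part of other cell types in the member levels was not tested.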

How the data were processed

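Agilent single-colour mouse arrays were scanned with Feature Extraction 10.5.1.1, per the file headers, which name build mm9. The deposited spot intensity, background-subtracted and detrended within the array, was used as given, and the authors' deposited score per probe, on an unstated scale with column medians from -0.169 to -0.0992, served as an alternative (its centring is unstated, its direction and a factor of 3.21 to log2 were found from the scanner signal). From the intensities the log2 value minus each array's 75th percentile was computed, without control spots and outlier-marked spots. Probes well above background on at least 5 arrays were kept (32078), and the brightest stood for its gene. Of 41174 probes, 25097 were named through the accession, 6333 by symbol, 1640 by synonym and 8104 by the file's name. Differences were tested with limma 3.58.1 in R 4.3.3 over all 28 arrays, 10 contrasts and a moderated F test, with Benjamini-Hochberg adjustment over 21852 genes, after being checked on simulated data. The number of arrays limits the precision.

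The members, the gene lists and the tests were chosen with earlier results of these data known. Genes named are the 10 members, list genes that passed (or up to 2 with the smallest p) and the 3 genes most correlated with each member. Alternatives were quantile and median scaling, normexp background correction, other probe filters and summaries, the deposited table, variance model, array weights, only the groups compared, slide, scan day and replicate number as blocks, and leaving out each array. Leaving out slides 1 and 8 was added after seeing the data. Replicate numbers paired SD and HFD by the values (correlations of deviations from 0.217 to 0.698 over 5 pairs, with no label behind it) and paired no other groups. Replicates 1 of SD and HFD shared slide 1 and replicates 2 shared slide 3, while the other SD and HFD pairs lay on different slides.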

Additional observations from a re-analysis of the deposited data

Results flagged for a closer look

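In 4 of 50 groups of livers examined, 1 liver lay far from the others by Dixon's criterion, where chance alone marks about 1 group in 20. Cps1 read 3.04 in HR replicate 1, with the nearest HR liver at 4.36. Asl read 3.15 in HQ replicate 1 (nearest 4.53) and 4.73 in HQR replicate 1 (nearest 4.30). Slc1a2 read 2.17 in HFD replicate 5, with the nearest HFD liver at 2.96.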

How the results depend on the processing

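The count of members called was 0 under each alternative and each array left out, in each comparison, except for HQR against SD. There, array weights gave 2 (Asl, adjusted p = 0.0131, and Slc1a2, 0.0222, by limma), leaving out 1 array gave 0 to 1 (1 without SD replicate 1, Asl), and leaving out slide 1, added after seeing the data, gave 1 (Asl, adjusted p = 0.0168). With the replicate number as a block, 0 members passed in HFD against SD, where the numbers pair the livers, and it changed no other call, and its smallest adjusted p was 0.165 (Asl, HQR against SD). With slide as a block the smallest was 0.0834 (Asl, HQ against SD). Array weights raised the calls over all genes from 11 to 115 in HQR against SD and from 25 to 40 in HFD against SD, and leaving out slide 1 gave 23 in HQR against SD. Under normexp the median of all genes was -0.14 in HFD against SD, 0.24 in HQ against HFD, 0.17 in HR against HFD, 0.19 in HQ against SD, 0.12 in HQ against HR and -0.17 in HQR against HQ, so differences under that setting are relative to those shifts. The small groups limit what can be said of Asl, Slc1a2 and the other members.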

Other observations

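Gls2 ran against some of the other members once group and slide means were removed. Over the arrays it then had r = -0.652 with Slc1a2, -0.526 with Glul and -0.494 with Arg1. With diets and slides included these values were -0.01, 0.141 and 0.314. After removal its r was also negative with Asl (-0.298), Oat (-0.291) and Ass1 (-0.252), but positive with Otc (0.288), Cps1 (0.277) and Rhbg (0.049). These correlations describe the arrays and were not tested.

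The Slc1a2 probe A_52_P311194 maps to the strand opposite the other 3 and was well above background on 11 of 28 arrays. It had r = -0.135 with the representative probe, whereas the other plus-strand probes had 0.673 and 0.925. Its mean log2 level was -4.10 ± 0.65 (SD, n = 5) in SD and -4.34 ± 0.44 (SD, n = 6) in HQR.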
